A study of Mus musculus with 125 samples.

Results

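The open chromatin of kidney endothelium was compared between adult and P6 mice in 4 ATAC-seq libraries, 2 of each age, out of 66 ATAC-seq libraries in the series. ATAC-seq cuts DNA where it is not wrapped in nucleosomes, so a peak of cuts marks a promoter, enhancer or other open element. Endothelial cells line the blood vessels; in the kidney they form the filtering capillaries of the glomerulus, the fenestrated capillaries around the tubules and the vasa recta of the medulla. The nuclei came from mice in which tamoxifen had switched on a GFP reporter in vessels, and all groups, the whole-kidney inputs included, carried that treatment at 0.015 mg per kg. The adult mice were 2 months old and had been injected 7 days before collection. The young mice were injected at P1 and P3 and are labelled P6, while the protocol text gives a collection at P7. The Cre driver, the strain, the sex and the number of animals per library are not given in the sources used here, and the protocol text breaks off before the step that separates reporter-bearing nuclei. Nuclear RNA of kidney endothelium, 2 libraries of each age, was used beside the open chromatin.

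The 4 lists held 26085 and 36489 peaks in adult libraries 1 and 2 and 61017 and 43882 in P6 libraries 1 and 2, from 25.7 to 34.4 M tags. Because the lengths differed so much, each list was cut to its 26085 strongest peaks by −log10 of the q-value. The cut fell at a −log10 q of 1.03 in adult library 1, where it kept the whole list, 3.60 in adult library 2, 7.71 in P6 library 1 and 4.15 in P6 library 2. Peaks overlapping by at least 1 bp were joined into 37781 regions. A region is called gained at adult when both adult lists and neither P6 list hold a peak in it, and lost at adult when both P6 lists and neither adult list do. These calls rest on ranks within a library and are not a test of single regions, since 2 peak lists per age allow none.

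Marker genes were compared with the label first. A peak lay within 5 kb of the start of 17, 17, 17 and 18 of 18 general endothelial genes in adult 1, adult 2, P6 1 and P6 2, against 2 to 5 in the 5 whole-kidney input libraries. Over all 21887 genes the share with such a peak was 53.1% to 54.3% in the endothelial lists and 52.9% to 57.0% in the inputs. Of 12 proximal tubule genes, 1, 0, 1 and 0 had such a peak in the endothelial lists, against 10 and 11 in the adult inputs and 3 to 9 in the P6 inputs. Markers of immune cells had one in 2 of 11 in each endothelial list against 2 to 3 in the inputs, and markers of erythroid cells in 1 of 9 against 1 to 2. Stromal and mural genes had a peak in 3 and 4 of 15 at adult and in 3 and 5 at P6, against 3 and 2 in the adult inputs and 5 to 8 in the P6 inputs. Podocyte genes had one in 5 of 10 in each endothelial list against 3 to 7 in the inputs, and nephron progenitor genes in 4, 4, 3 and 4 of 12 against 7 to 9 in the inputs. Loop and distal tubule genes had one in 1, 1, 1 and 3 of 10 against 3 to 5 in the inputs, and collecting duct genes in 2, 2, 1 and 3 of 12 against 3 to 4. Lymphatic genes had one in 2 of 7 in each endothelial list against 0 to 1 in the inputs. The part of these cells in the results was not tested.

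All 4 lists held 16731 regions, 44.3% of all. Gained regions numbered 2148, 5.69% of all regions, and lost regions 2712, 7.18%. With full lists of unequal length the counts were 544 and 11200, so the balance of gained and lost depends on the cut. In bulk nuclei, fewer cells of a type and less open chromatin or RNA per cell cannot be told apart. Regions held by 1 list alone numbered 3179 and 2354 in adult libraries 1 and 2 and 2327 and 2065 in P6 libraries 1 and 2, so at each age more regions were seen in 1 library alone than in both libraries of that age and neither of the other. Lists of the same age shared a larger part of their regions than lists of different ages. The Jaccard index, the shared part of the regions of 2 lists, was 0.678 for the adult pair and 0.726 for the P6 pair, against 0.573 to 0.620 for the 4 pairs between ages. The difference of the means was 0.102, and the exact 1-sided permutation test over the 3 ways to pair 4 libraries gave p = 0.333, the smallest it allows.

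**Figure D1:**
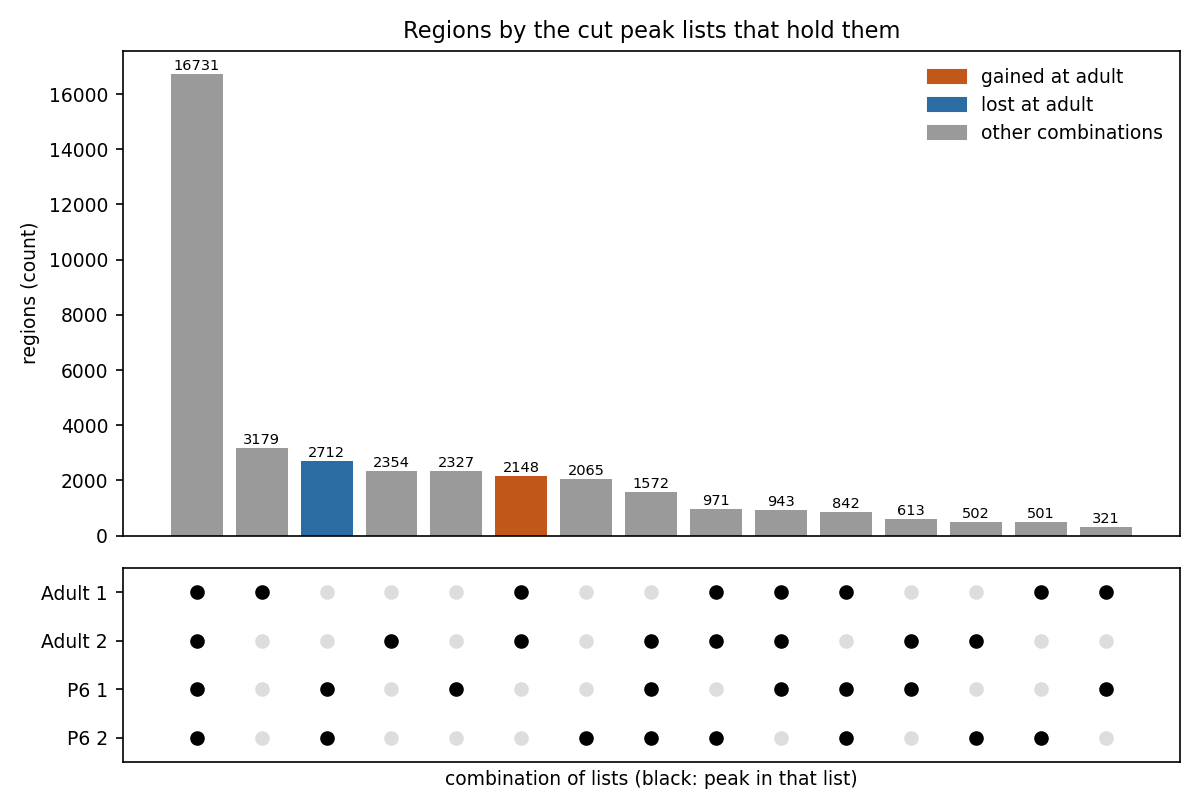
Number of regions (vertical axis) for each combination of the 4 cut peak lists; black dots below mark the lists that hold a peak. The combination of all 4 lists has 16731 regions, the lost combination 2712 and the gained combination 2148.

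The full lists show how many regions had no peak at all at the other age. Of the 2712 lost regions, 1806 had no peak in the full adult lists, 4.78% of all regions. The other 906 had a lower-ranked peak in adult library 2; adult library 1 could hold none, because its whole list was used. Of the 2148 gained regions, 277 had no peak in the full P6 lists, 0.733% of all regions, and 1871 had a lower-ranked P6 peak, 1220 of them in both P6 libraries. The full P6 lists, with 61017 and 43882 peaks, reach further down than the adult lists, with 26085 and 36489, so a peak of low rank is easier to find at P6 and these shares do not compare gained with lost regions. Fold is the authors' ratio of a peak over the local background of its own library and is not scaled between libraries. Over the regions in all 4 lists its median was 4.38 and 4.87 in adult libraries 1 and 2 and 5.06 and 4.92 in P6 libraries 1 and 2, which is the baseline for folds set side by side across ages. In 513 of those 1220 regions both P6 folds were below both adult folds, in 682 the ages overlapped, and in 25 both P6 folds were above. Some calls lie close to the limit: the strongest P6 peak in a gained region and the strongest adult peak in a lost region both ranked 26090, just beyond it, while the weakest peaks inside ranked 26085 and 26084.

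Both kinds of region lay mostly away from promoters. A promoter here runs from 1 kb upstream to 100 bp downstream of a RefSeq gene start. It was touched by 10.3% of gained regions (95% Wilson interval 9.07 to 11.6%, counting error only) and 7.82% of lost regions (6.87 to 8.89%). The share was 45.6% for the regions in all 4 lists and 25.9% for all. For 4395 of 21887 protein-coding genes no RefSeq start was at hand. Regions at their starts are not counted as promoters, so each of these shares can be too low. The order of the gained and lost shares turned without adult library 1 (8.53% and 10.4%), without adult library 2 (9.16% and 9.75%) and with full lists (5.70% and 8.49%). The median distance to the nearest start of a protein-coding gene was 27.2 kb for gained and 33.3 kb for lost regions, and 0.654 kb for regions in all 4 lists. Lost regions had a median width of 475 bp, gained regions of 417 bp and shared ones of 796 bp. On the X chromosome 6.01% of regions were gained and 4.71% lost.

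The strongest gained regions without any P6 peak lay near genes of varied function. The best ranked lay at chr9:48723267-48724131 within the body of Zbtb16, a zinc finger factor known to be induced by glucocorticoids, with a fold of 4.49 and 5.34 in adult libraries 1 and 2; the nearest start there is that of Gm32280, 53.6 kb away. A region at chr12:34563158-34563570 in Hdac9, a class IIa histone deacetylase, had folds of 5.58 and 6.33. Clec14a, an endothelial surface lectin known from vessel sprouting, had a region 65.1 kb upstream of its start with folds of 4.96 and 6.33. In each of these the 2 adult libraries listed a peak and the full P6 lists held none. Signal too weak to be listed as a peak was not looked at. Papss1, which makes the sulfate donor for heparan sulfate, had 5 gained regions of 10, and 4 of them had no P6 peak; the strongest, at chr3:131734289-131734712, had folds of 4.45 and 6.36. Further regions of this kind lay nearest to Cdh9, Umps (within the body of the integrin gene Itgb5), Trpm1, Lrmda, Plod2, Lancl3, Mdfic and Tnfrsf8, with adult folds from 3.71 to 5.95. Plod2 is a lysyl hydroxylase that prepares collagen for cross-linking.

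The strongest lost regions were chosen among 1806 without any adult peak, the gained ones among 277, so their ranks are not compared. The worse of the 2 ranks ran from 4709 to 5758 over the 11 lost regions named here and from 4686 to 12225 over the 12 gained ones. Tmem100, a transmembrane protein known as a target of BMP9 and ALK1 signalling in endothelium, had a lost region at chr11:90054356-90054929, 18.1 kb from the gene, with folds of 6.94 and 7.20 in P6 libraries 1 and 2. Igf2bp3, an RNA-binding protein typical of fetal tissue, had a region 3.02 kb upstream of its start at chr6:49217638-49218320 with folds of 4.63 and 5.10. A region 13.7 kb upstream of Ceacam15 had folds of 8.73 and 6.81. The remaining ones were nearest to F11, Adgb, Npl, Tbl1xr1, Cdk5rap2, Hsfy2, Rbfox1 and Gm45623, with P6 folds from 5.50 to 8.52.

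**Figure D2:**
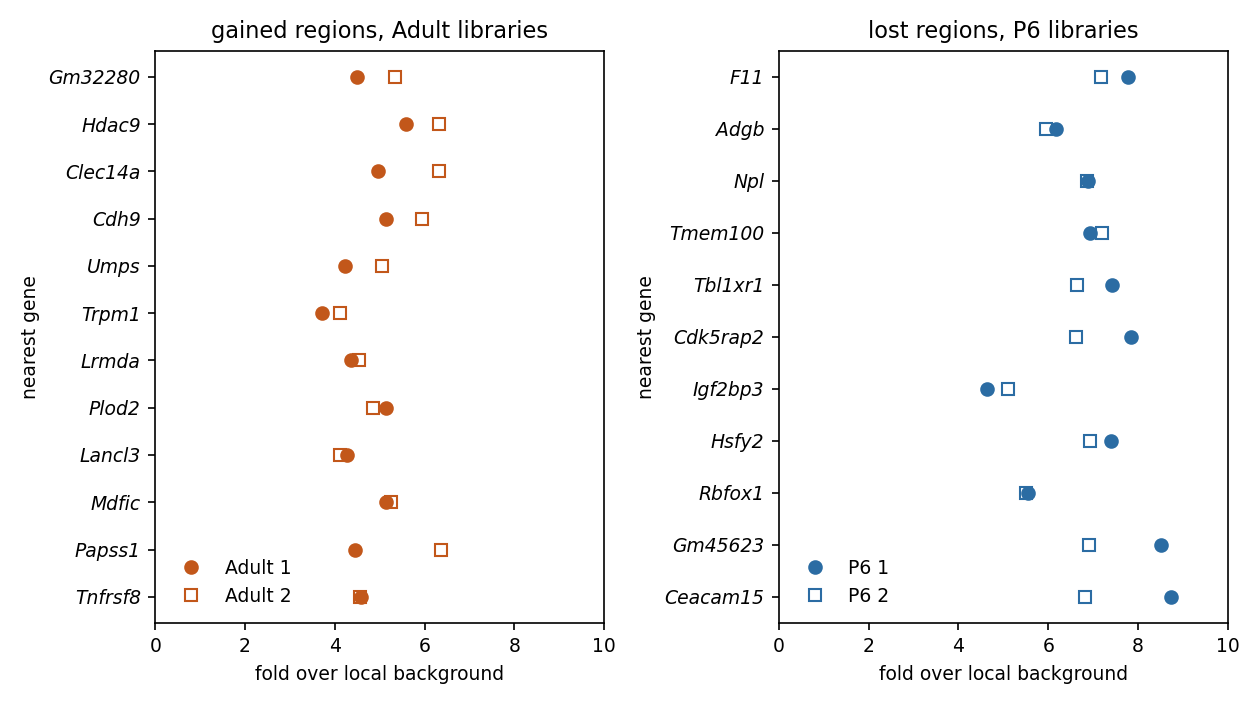
Fold over the local background (horizontal axis, linear) of the 12 best-ranked of the 277 gained regions without a P6 peak, in the 2 adult libraries (left), and of 11 of the best-ranked of the 1806 lost regions without an adult peak, in the 2 P6 libraries (right), by nearest gene; circles are library 1 and squares library 2. Folds run from 3.71 to 6.36 for the gained and from 4.63 to 8.73 for the lost regions; regions with any peak at the other age were not eligible.

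Regions were assigned to the nearest start of a protein-coding gene, which for far regions need not be the gene they act on. That start was over 50 kb away for 35.8% of gained and 39.6% of lost regions, against 26.3% of all. Of 21887 genes, 1675 had at least 1 gained region, 7.65%, and 2121 had at least 1 lost region, 9.69%; 377 had both. Genes with most gained regions were Usp25 (7 of 30 regions), a deubiquitinase, and Gbe1 (6 of 12), the glycogen branching enzyme. Marcks had 6 of 30, and Trib2, St3gal1, Papss1, Igfbp3 and Efnb2 had 5 each. Most lost regions fell to Ptn (6 of 13), which encodes the growth factor pleiotrophin, Jarid2 (6 of 19), a partner of the Polycomb complex that methylates histone H3, Tspan18 (6 of 18) and Rapgef2 (6 of 24). Trabd2b, Cdh13 (T-cadherin), Gap43 and Elmo1 followed with 5 each. None of Usp25, Gbe1, Marcks, St3gal1 and Papss1 had a lost region, and none of Tspan18, Ptn, Jarid2, Cdh13, Gap43 and Elmo1 a gained one. Rapgef2 had 3 gained regions beside its 6 lost ones, and Efnb2 had 2 lost ones beside its 5 gained.

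Gene lists are described next by how many of their regions were gained or lost, beside 5.69% and 7.18% over all regions. A gene with many regions has more chances to be counted, so the shares of regions are given with the counts of genes. These lists were drawn up with earlier results of these data known, so their counts describe them and support nothing further.

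Genes of the peritubular and other fenestrated capillaries held 13 gained and 2 lost regions of 87. Gained regions lay at 5 of 12 genes. Igfbp3, a binding protein for insulin-like growth factors and a marker of peritubular capillaries, had 5 gained and 1 lost of 16. The gained ones lay 261 to 684 kb upstream of its start. Its region at chr11:7838214-7839121, 625 kb upstream, had folds of 4.08 and 6.52 in adult libraries 1 and 2 and 2.78 in P6 library 1, with no peak in P6 library 2. Cd36, the fatty acid uptake receptor, had 3 gained regions of 8. At chr5:17876615-17877148 the Cd36 folds were 4.47 and 5.59 at adult and 3.60 and 3.88 at P6. Kdr, the main VEGF receptor of endothelium, had 3 gained and 0 lost regions of 25. At the Kdr region chr5:75956070-75956497, within the gene, folds were 3.65 and 3.62 at adult and 2.81 and 2.78 at P6, again without overlap, whereas 11 other Kdr regions were in all 4 lists. Fabp4, a fatty acid binding protein, had 1 lost region of 5.

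Arterial genes held 12 gained and 5 lost regions of 86, at 5 and 3 of 14 genes. Efnb2, the arterial ephrin ligand, had 5 gained and 2 lost regions; the gained ones lay 327 to 1529 kb from its start, and 4 of them had a lower-ranked P6 peak. Jag1, a Notch ligand, had 2 gained regions, 461 and 492 kb upstream of its start. The one at chr2:137577171-137577479 had folds of 4.58 and 4.63 at adult and no P6 peak. Fbln5, an elastic fibre protein, also had 2 gained regions, 1 of them over its promoter. Alox12 had 2 lost regions. Venous genes held 8 lost and 5 gained regions of 59. Nrp2, a coreceptor for VEGF-C and semaphorins in veins and lymphatics, accounted for 4 lost regions and no gained one. The ones 459 and 521 kb upstream lay in the body of Pard3b. A region within Nrp2 itself, at chr1:62717105-62717513, had folds of 3.64 and 4.07 at P6 and no adult peak. Selp, P-selectin, had a lost region 5.25 kb upstream of its start, with P6 folds of 4.90 and 4.53. Vwf had 2 lost regions, and Vcam1 and Il1r1 had 2 gained regions each.

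Genes of the fetal growth list held 8 lost and 1 gained region of 30, at 4 and 1 of 12 matched genes. All 8 lost regions had no adult peak. Hmga2, a chromatin protein of embryonic cells, had 3; the strongest, at chr10:120686008-120686575, 210 kb upstream, had folds of 7.67 and 6.08 in P6 libraries 1 and 2. Beside Igf2bp3 with 2, the imprinted genes Mest and Dlk1 had 2 and 1. The Mest region at chr6:30720224-30720690 had folds of 5.13 and 5.24. Grb10, an imprinted adaptor that restrains growth, had the 1 gained region, with adult folds of 3.24 and 3.54. Cell cycle genes held 4 lost and 0 gained regions of 34. They lay nearest to Rrm2, a subunit of ribonucleotide reductase (2 regions), Cdk1 and Mki67. The Mki67 one lay 331 kb upstream, over the promoter window of another gene, and had a peak of fold 2.83 in adult library 2. At the Cdk1 region chr10:69351110-69351454 the P6 folds were 3.98 and 3.16. All 16 cell cycle genes had a peak within 5 kb of their start in each of the 4 endothelial lists.

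Among signalling genes, Hes1, a target of Notch, had 5 lost and 0 gained regions of 15. The lost ones lay 43.9 to 178 kb from the gene, and 3 of them had no adult peak. The lost region at chr16:29928173-29928749 had folds of 5.60 and 4.24. The Notch list as a whole had 7 lost and 4 gained regions of 76. VEGF and angiopoietin genes had 10 lost and 8 gained of 116 (8.62% and 6.90%), near the shares over all regions. Nrp2 had 4 of the lost regions, Tek, the angiopoietin receptor, had 2, and Flt4, the VEGF-C receptor, and Vegfa had 1 each. Kdr had 3 of the gained regions, Flt1 had 2 and Angpt2 had 1. Nrp1 and Ptprb had 1 gained and 1 lost region each. The tip cell and sprouting list had 11 gained and 8 lost regions of 105 (10.5% and 7.62%), with gained regions at 7 of 14 genes and lost ones at 5. One of these genes, Cxcr4, a chemokine receptor, had 2 lost regions, each with a lower-ranked peak in adult library 2. Of 16 regions of the lymphatic list, 3 were lost and 0 gained, 1 each nearest to Flt4, to Reln and to Lyve1, whose region lay in the body of Mrvi1 with P6 folds of 6.22 and 5.10.

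Transcription factor lists held both kinds of region. The lineage factors (SOXF, ETS and others) had 14 gained and 13 lost regions of 181, near the shares over all regions. Elk3, an ETS factor, had 4 gained and no lost regions of 15, and Foxo1, which restrains endothelial growth, had 3 gained and none lost of 22; in both genes all gained regions also had a P6 peak, of lower rank within its library, in at least 1 P6 list. At the Elk3 region chr10:93316940-93317252 the folds were 2.90 and 3.10 at adult and 3.24 and 3.38 at P6. GATA, TBX and HOX factors had 12 lost and 7 gained regions of 109. Meis1, a HOX partner, had 4 lost and 3 gained regions of 21, and the 4 lost ones had no adult peak, with folds from 4.08 to 5.42. Gata3, Gata4 and Gata5 each had 1 lost and no gained region, and the Gata3 one lay 1124 kb from its start. The one 16.9 kb from Gata5, a factor of glomerular endothelium, had folds of 5.04 and 4.45 at P6 and no adult peak. The glomerular list as a whole had 7 lost and 5 gained regions of 82. General endothelial genes were even, with 10 gained and 10 lost of 170.

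Interferon and MHC genes held 10 gained and 1 lost region of 76, with gained regions at 9 of 22 genes. Interferon-stimulated genes act in antiviral defence, and MHC class I molecules present peptides to T cells. Gained regions lay near Irf7 and Irf1, factors that switch these genes on, near Nlrc5, which drives MHC class I genes, and near H2-D1, Gbp2, Ly6c1, Ly6e, Cd74 and Cxcl9. The Cxcl9 region, at chr5:92323251-92323636 in the gene, had folds of 4.22 and 4.14 at adult and no P6 peak. Ly6c1 also had no P6 peak, with adult folds of 2.99 and 2.73. The other 8 regions had a P6 peak of lower rank in at least 1 library; over the Irf7 promoter they were 3.28 and 3.61 at adult and 3.24 and 3.15 at P6.

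Xenobiotic and oxidative enzyme genes held 7 gained and 0 lost regions of 29, with gained regions at 6 of 15 genes: Fmo1, a flavin monooxygenase; Ephx1, an epoxide hydrolase; the glutathione transferases Gstm1 and Mgst1; Sod3, extracellular superoxide dismutase; and Adh1, an alcohol dehydrogenase. The Fmo1 region, at its start at chr1:162866283-162866688, had folds of 3.56 and 4.37 at adult and no P6 peak. At Sod3, chr5:52363732-52364058, they were 3.81 and 4.92 at adult and 3.33 in P6 library 1 alone. A peak lay within 5 kb of the start of 10 and 9 of the 15 genes in the adult endothelial lists (66.7% and 60%). In the P6 lists it did so for 6 and 5 (40% and 33.3%), against 53.1% to 54.3% of all genes in these lists. The adult inputs held such a peak at 13 and 11 of the 15, and the P6 inputs at 10 to 12. The endothelial counts come from the same cut lists as the gained and lost calls, so they restate the calls and are no separate support. Circadian and glucocorticoid genes had 6 gained regions of 101, a share near that over all regions, and no lost one; they were near Zbtb16 (2), Arntl, a core clock factor, Hlf, Klf9 and Tsc22d3.

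**Figure D3:**
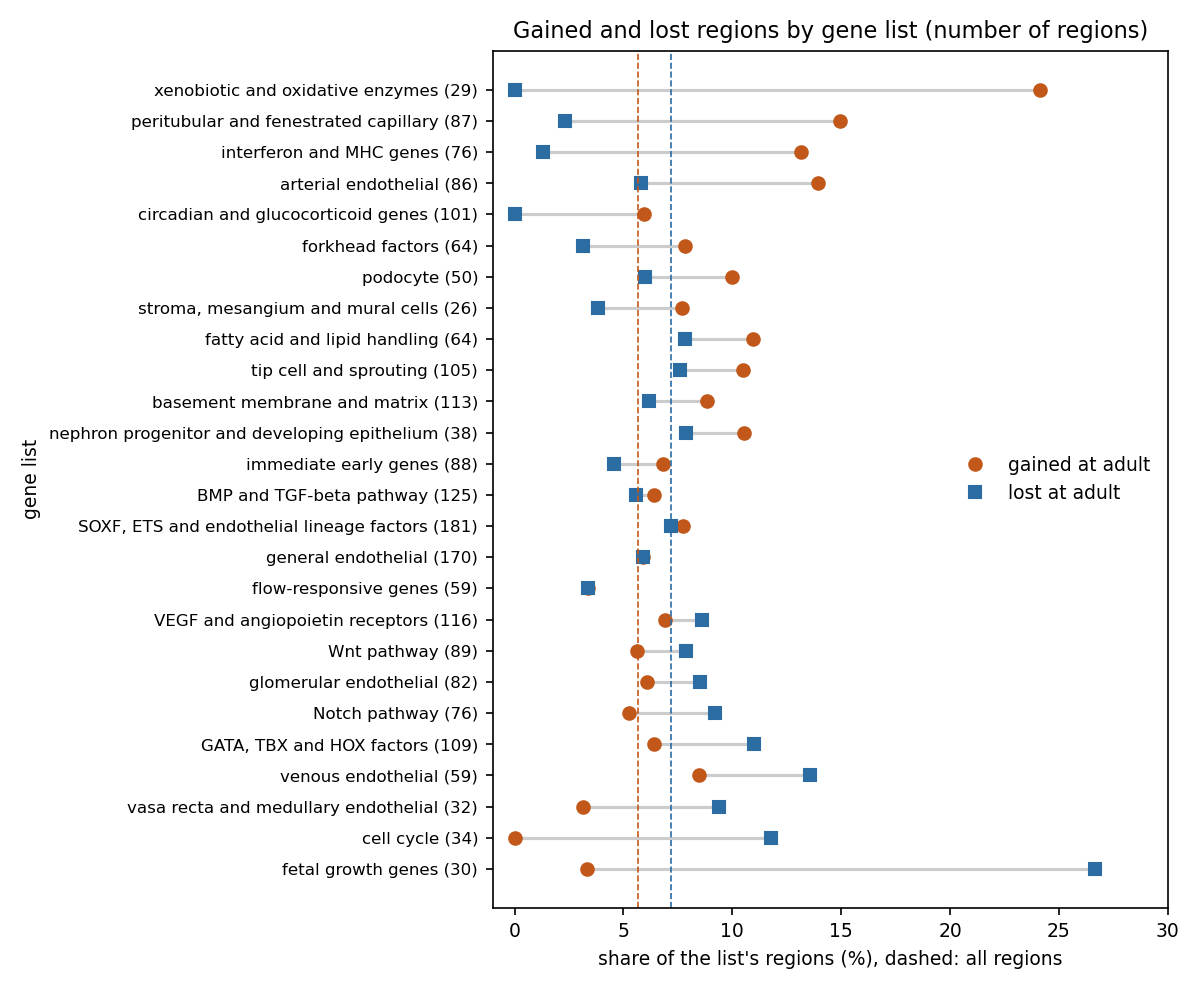
Share (%) of the regions nearest to the genes of each list that were gained (circles) or lost (squares) at adult, for the lists with at least 25 regions; the number of regions is in brackets and dashed lines give the shares over all regions, 5.69% gained and 7.18% lost. Xenobiotic enzymes lie at one end, with 24.1% gained and 0% lost, and fetal growth genes at the other, with 3.33% gained and 26.7% lost.

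Promoter sequences of the gained and lost sets are shown because several interferon genes among them carry the same short motif. The windows below are the 250 bases upstream of a RefSeq start (GRCm38.p6), printed 5′ to 3′ on the strand of the gene, with matches to the 14 motifs given further on in capitals. Esm1, a proteoglycan of sprouting endothelium, Nrp1, a VEGF coreceptor, and Irf7 were taken from the lists and Rapgef2 from the genes with most lost regions; the other 6 were chosen after their values were seen.
Gained at adult.
Gbp5, chr3:142496684-142496933, plus strand: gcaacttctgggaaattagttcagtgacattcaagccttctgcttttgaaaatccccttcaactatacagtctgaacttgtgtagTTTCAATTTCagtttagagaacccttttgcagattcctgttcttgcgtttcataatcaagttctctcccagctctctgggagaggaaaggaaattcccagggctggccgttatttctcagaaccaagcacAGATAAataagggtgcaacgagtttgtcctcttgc
Tgtp1, chr11:48992247-48992496, minus strand: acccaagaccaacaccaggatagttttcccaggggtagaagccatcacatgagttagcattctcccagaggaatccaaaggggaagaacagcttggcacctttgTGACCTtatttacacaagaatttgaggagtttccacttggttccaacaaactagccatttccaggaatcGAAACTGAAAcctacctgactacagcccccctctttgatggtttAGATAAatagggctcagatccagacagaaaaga
Ifi207, chr1:173741810-173742059, minus strand: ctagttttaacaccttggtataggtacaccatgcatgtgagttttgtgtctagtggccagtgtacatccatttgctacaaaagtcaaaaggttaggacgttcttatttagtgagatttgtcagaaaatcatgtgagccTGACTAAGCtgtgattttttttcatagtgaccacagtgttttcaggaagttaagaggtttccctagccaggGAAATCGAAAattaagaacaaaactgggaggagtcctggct
Phf11b, chr14:59341331-59341580, minus strand: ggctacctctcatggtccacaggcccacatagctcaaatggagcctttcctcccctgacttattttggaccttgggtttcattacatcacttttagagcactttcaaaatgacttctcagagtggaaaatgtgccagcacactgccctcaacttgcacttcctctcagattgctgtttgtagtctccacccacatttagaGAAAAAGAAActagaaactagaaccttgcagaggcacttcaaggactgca
Irf7, chr7:141266425-141266674, minus strand: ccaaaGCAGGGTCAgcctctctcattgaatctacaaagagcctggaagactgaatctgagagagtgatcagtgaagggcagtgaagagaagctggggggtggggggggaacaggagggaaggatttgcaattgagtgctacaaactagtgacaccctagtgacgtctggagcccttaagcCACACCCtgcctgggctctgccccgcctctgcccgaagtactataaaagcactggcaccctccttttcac
Esm1, chr13:113209409-113209658, plus strand: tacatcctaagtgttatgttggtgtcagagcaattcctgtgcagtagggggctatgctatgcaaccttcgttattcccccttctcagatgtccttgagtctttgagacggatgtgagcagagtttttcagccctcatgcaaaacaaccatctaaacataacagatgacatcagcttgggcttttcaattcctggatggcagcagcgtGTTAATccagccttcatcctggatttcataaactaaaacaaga
Nrp1, chr8:128358823-128359072, plus strand: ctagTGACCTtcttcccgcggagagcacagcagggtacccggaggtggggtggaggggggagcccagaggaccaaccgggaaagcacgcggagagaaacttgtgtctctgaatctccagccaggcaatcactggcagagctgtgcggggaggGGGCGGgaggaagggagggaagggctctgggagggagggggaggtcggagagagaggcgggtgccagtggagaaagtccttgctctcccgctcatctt
Lost at adult.
Uhrf1, chr17:56303087-56303336, plus strand: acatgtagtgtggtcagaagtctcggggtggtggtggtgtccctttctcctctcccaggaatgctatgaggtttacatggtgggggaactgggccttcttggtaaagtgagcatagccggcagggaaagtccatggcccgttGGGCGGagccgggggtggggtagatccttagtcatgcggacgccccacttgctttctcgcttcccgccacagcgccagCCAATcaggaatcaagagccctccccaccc
Melk, chr4:44300667-44300916, plus strand: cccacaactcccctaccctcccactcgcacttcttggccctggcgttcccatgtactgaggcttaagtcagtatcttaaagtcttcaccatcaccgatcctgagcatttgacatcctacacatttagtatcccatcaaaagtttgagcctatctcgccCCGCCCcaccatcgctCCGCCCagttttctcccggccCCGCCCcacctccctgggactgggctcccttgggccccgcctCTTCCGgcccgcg
Rapgef2, chr3:79145747-79145996, minus strand: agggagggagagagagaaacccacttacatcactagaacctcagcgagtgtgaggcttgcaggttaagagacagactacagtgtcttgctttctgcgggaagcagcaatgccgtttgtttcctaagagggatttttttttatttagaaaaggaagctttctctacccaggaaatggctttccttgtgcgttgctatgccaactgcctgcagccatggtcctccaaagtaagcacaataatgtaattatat

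The capitals in Gbp5 and Tgtp1, which encode interferon-induced GTPases, in Ifi207 and in Phf11b include GAAA, 2 bases of any kind and again GAAA (or its reverse complement), the core of the element bound by interferon regulatory factors (IRF). At Ifi207 the adult folds were 3.98 and 4.58 and at Phf11b 3.93 and 4.34, and neither had a P6 peak. At Gbp5 they were 3.07 and 3.08 at adult against 2.64 and 2.80 at P6. At Tgtp1 they were 3.46 and 3.35 at adult against 3.70 and 3.72 at P6, values that are not scaled between libraries. Esm1, with 3.39 and 3.99 at adult and 4.06 and 3.13 at P6, and Nrp1, with 2.89 and 2.70 against 2.52 and 2.82, had unscaled folds that overlapped between the ages. The whole-kidney input lists, each cut to 26085 peaks, held no peak at the 4 promoters printed above that carry the IRF motif. Weaker input peaks beyond that cut were not looked up. Uhrf1, which keeps DNA methylation through replication, and Melk, a mitotic kinase, are proliferation genes; the P6 folds were 3.60 and 3.68 at Uhrf1 and 5.46 and 4.23 at Melk, and neither adult library listed a peak. In the cut input lists Uhrf1 also had a peak in adult input library 2 and in P6 input libraries 2 and 3, and Melk in P6 input libraries 1 and 3. The Rapgef2 window, with P6 folds of 4.56 and 3.88 and no adult peak, held none of the motifs.

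In all, 178 promoter windows of 166 genes lay in gained regions and 151 windows of 141 genes in lost regions, out of 21238 windows with a sequence. The IRF motif stood in 17 of the 178 gained windows (9.55%), 3 of the 151 lost ones (1.99%), 2.23% of the windows open in all 4 lists and 2.95% of all windows. Only 2 of the 17, at Ifi207 and Phf11b, lay in a region without a P6 peak, as did 6 of all 178. The others had a P6 peak of lower rank in at least 1 library. The 17 windows belong to 16 genes, and 6 of these (Ifi203, Ifi206, Ifi207, Ifi211, Ifi213 and Mndal) are neighbouring copies of 1 gene family on chromosome 1, so they are not independent. The other 10 are Gbp5, Tgtp1, Phf11b, Trim30d, Tmem140, Asb5, Cyp4v3, Itga3, Plcd3 and Rpl4. In the lost set the motif stood before Brd7, Iqca and Rnf182. The input lists, cut to 26085 peaks, held a peak at 0 to 4 of the 17 gained windows, against 89 to 107 of all 178.

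The other motifs were searched on both strands in the same windows. AP-1 (TGANTCA) stood in 8.99% of gained and 2.65% of lost windows, against 6.14% of all, and HNF1 (GTTAAT), named after a factor of kidney epithelium, in 8.43% and 2.65% against 5.86%. In the windows open in all 4 lists the shares were 3.45% for AP-1 and 3.10% for HNF1. The cut input lists held a peak at 6 to 9 of the 16 gained windows with AP-1 and at 8 to 12 of the 15 with HNF1. ETS (CGGAAG) stood in 15.2% and 13.9%, against 30.5% of the windows open in all 4 lists. SP (GGGCGG) stood in 43.8% of gained and 53.6% of lost windows, NFY (CCAAT) in 27.5% and 34.4%, SOX (AACAAT) in 5.06% and 7.95%, the GATA factor motif (AGATAA) in 5.62% and 4.64%, KLF (CACACCC) in 6.18% and 7.95%, and forkhead (TGTTTAC) in 4.49% and 3.97%. The glucocorticoid receptor motif (ACANNNTGT) stood in 6.18% and 3.97%, the nuclear receptor element (AGGTCA) in 11.2% and 11.3%, the antioxidant element (TGACNNNGC) in 11.2% and 10.6%, and E2F (TTTCCCGC) in 1.12% and 0.662%. Over all windows the shares were 17.1% for ETS, 42.6% for SP, 35.4% for NFY, 8.22% for SOX, 8.81% for the GATA factors, 7.08% for KLF and 2.61% for forkhead. They were 5.18% for the glucocorticoid receptor, 12.8% for nuclear receptors, 10.4% for the antioxidant element and 1.18% for E2F. The median window held 10 CpG pairs in the gained, 13 in the lost and 18 in the shared set, and 57.2%, 60% and 61.6% G and C. A match is a description of letters and not a bound site.

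**Figure D4:**
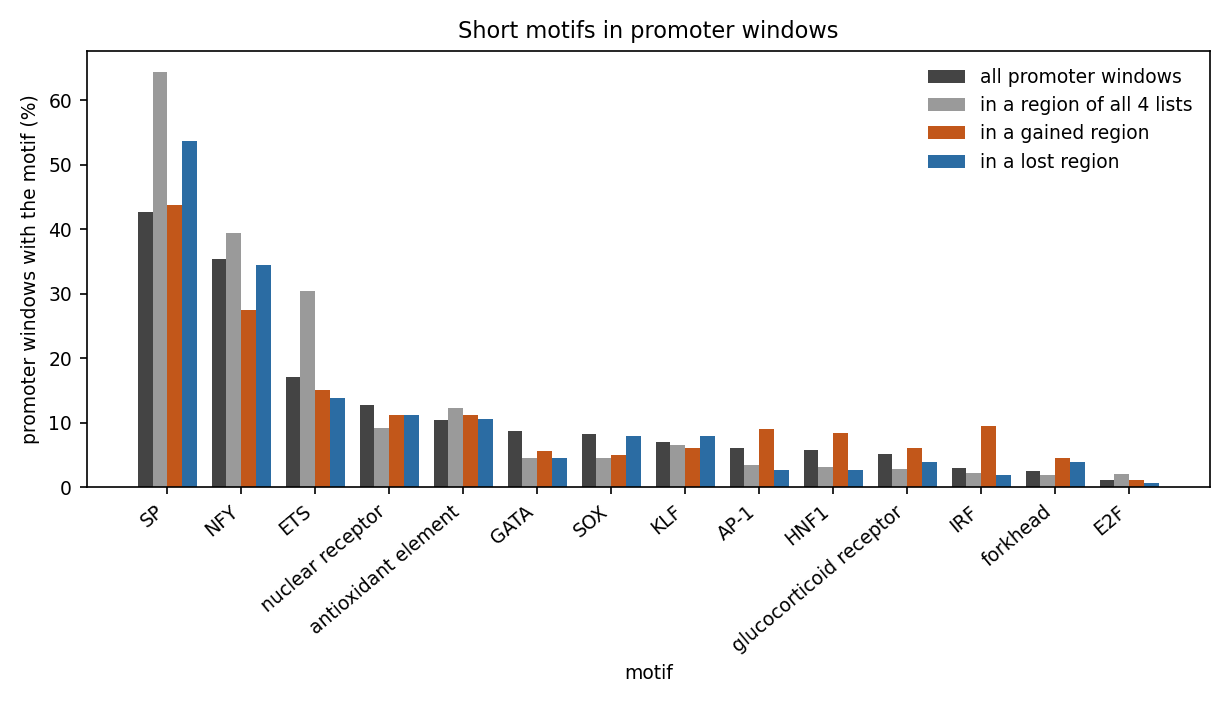
Share (%) of promoter windows of 250 bases with each of 14 short motifs, for all windows and for those in regions of all 4 lists, in gained and in lost regions. The IRF motif stands in 9.55% of the gained and 1.99% of the lost windows, against 2.95% of all.

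The same regions were looked up in libraries that the calls did not use. In whole-kidney input, 34.6% and 32.9% of gained regions had a peak in adult libraries 1 and 2, and 24.2%, 29.9% and 28.5% in P6 libraries 1, 2 and 3, with all lists cut to 26085 peaks. The adult and P6 values did not overlap. For lost regions the order was opposite and the gap wider: 5.05% and 7.12% in the adult inputs and 21.0%, 20.2% and 20.2% in the P6 inputs. Gained regions without any P6 endothelial peak were at 40.1% in each adult input and at 13.4%, 21.7% and 22.7% in the P6 inputs. Regions in all 4 lists had a peak in 64.5% and 64.8% of cases in the adult inputs and in 68.6%, 69.8% and 69.5% in the P6 inputs, so the shared regions were also higher at P6, and both differences are to be read against that shift. Input holds all cells of the kidney, endothelium included, so these values cannot tell whether endothelial or other nuclei gave the input peak. Among lists of other kidney cells, collecting duct genes held 3 gained and 1 lost region of 14 (21.4% and 7.14%). Loop and distal tubule genes held 1 and 0 of 9, and proximal tubule genes 1 and 1 of 16. Nephron progenitor genes held 4 and 3 of 38 (10.5% and 7.89%) and podocyte genes 5 and 3 of 50 (10.0% and 6.00%). Stromal and mural genes held 2 and 1 of 26, immune genes 0 and 2 of 15 and erythroid genes 0 and 0 of 2. The 3 gained collecting duct regions all belong to 1 gene, Atp6v1g3, a proton pump subunit of intercalated cells. They lay 52.7 to 73.4 kb downstream of its start. At the 3 Atp6v1g3 regions the adult folds ran from 3.05 to 5.73, and each had a P6 peak of lower rank. The part of tubule nuclei in the gained regions was not tested.

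Endothelial libraries of brain, heart, liver, lung and retina, with each list cut to 19464 peaks, differed with age in the same direction as kidney. Gained kidney regions had a peak in 25.7% of cases in adult heart and 11.2% in P6 heart, in 22.0% and 10.1% in liver, in 21.5% and 10.5% in lung, in 18.0% and 10.0% in brain and in 9.24% and 6.56% in retina. Over the 5 organs the mean was 19.3% at adult and 9.68% at P6, higher at adult in 5 of 5. Lost kidney regions had a peak in 12.8% of cases in adult heart and 33.1% in P6 heart, in 14.2% and 28.1% in liver, in 12.3% and 29.6% in lung, in 13.5% and 23.1% in brain and in 11.8% and 20.4% in retina. Their mean was 12.9% at adult and 26.9% at P6, lower at adult in 5 of 5 organs. The exact permutation test with organs as units gave p = 0.0625 for each, 2-sided, the smallest that 5 organs allow. Regions in all 4 kidney lists had a peak in 72.3% of cases at adult and 72.5% at P6 (exact p = 0.875). With full lists, where P6 lists are longer, the gained regions turned to 21.2% at adult and 23.7% at P6, while the lost ones kept their direction with 22.0% and 61.0%. Of the 2148 gained regions, 793 (36.9%) had no peak in the adult endothelium of any of the 5 organs. Of the 2712 lost ones, 686 (25.3%) had no peak in the P6 endothelium of any. The same share over all regions was not counted, so these numbers do not mark regions as particular to kidney.

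**Figure D5:**
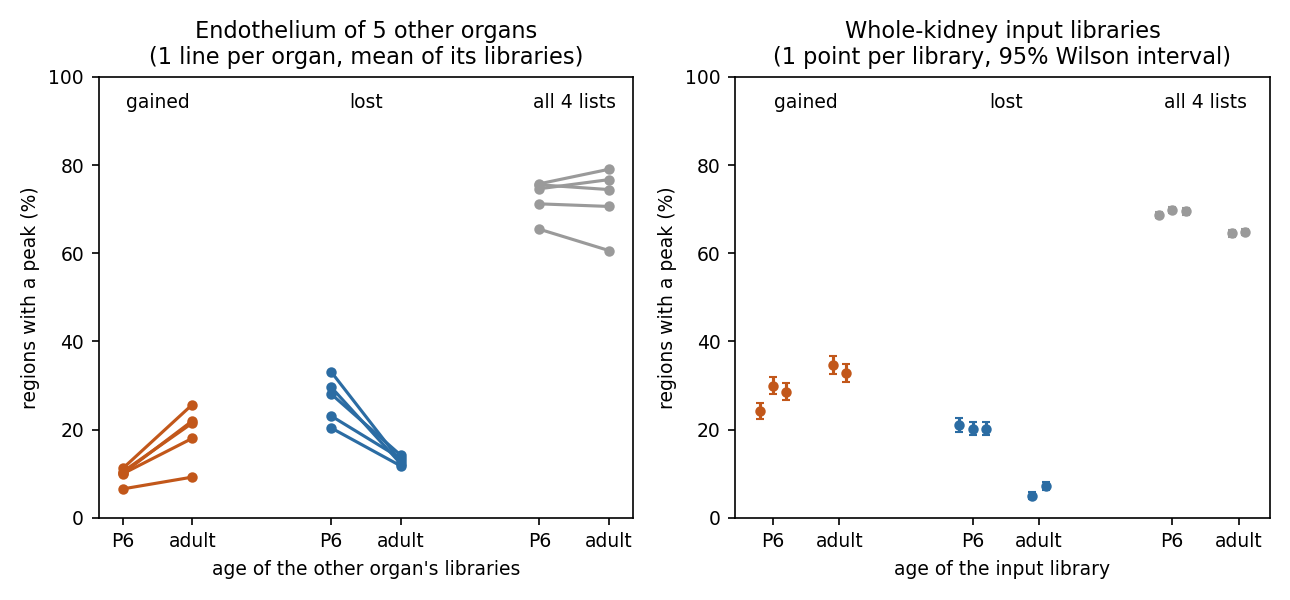
Share (%) of gained, lost and shared kidney regions that have a peak at P6 and at adult in the endothelium of 5 other organs (left, 1 line per organ) and in whole-kidney input libraries (right, 1 point per library with its 95% Wilson interval). In both panels gained regions are more frequent at adult and lost regions more frequent at P6, while shared regions lie between 60.6% and 79.0%.

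Nuclear RNA was tested per transcript, because the tables name Ensembl transcripts and no table pairs them with genes, so a transcript could not be set beside a region. Totals were 20.1 and 36.6 M reads in adult libraries 1 and 2 and 10.3 and 2.57 M in P6 libraries 1 and 2. By edgeR's quasi-likelihood test over the 8 kidney libraries, 1023 of 58439 transcripts were higher at adult, 1.75%, and 479 lower, 0.82%, at a Benjamini-Hochberg adjusted p under 0.05 and a change of at least 1 on the log2 scale. These counts depend on which libraries enter the fit. On the 4 endothelial libraries alone, with P6 library 2 kept, the same test called 0 in either direction. There 6765 transcripts had an unadjusted p under 0.05. The calls were also not kept without P6 library 2, the shallowest, but that fit has 1 library at P6. Whether depth plays a part was not tested. DESeq2 called 2690 higher and 1695 lower. The lower count also moved without adult library 1 (305), adult library 2 (990) or P6 library 1 (189).

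The 2 transcripts of smallest p in each direction had the same adjusted p of 0.00645. ENSMUST00000006136.10 had 203 and 167 CPM (counts scaled to library size) in the adult endothelial libraries and no read in either P6 library, which is at least 796-fold higher against a floor of 3 reads over both P6 libraries. The whole-kidney inputs showed the same split, with 209 and 169 CPM at adult and 1.63 and 1.48 at P6, so the adult endothelial level was close to that of whole kidney. ENSMUST00000168887.7 had 72.3 and 58.9 CPM at adult and no read at P6, at least 282-fold higher, yet its inputs were 36.5 and 37.0 at adult and 63.3 and 71.1 at P6. Reads can be split between transcripts of a gene, so a 0 for 1 transcript is not a 0 for its gene. Of those lower at adult, ENSMUST00000007340.3 had 0.472 and 0.546 CPM at adult against 85.8 and 85.6 at P6, a log2 fold change of -7.36 (SE 0.284). ENSMUST00000001547.7 had 186 and 173 against 2945 and 2895, a log2 fold change of -4.02 (SE 0.191). Both were also lower in the adult inputs than in the P6 inputs, the second at 87.9 and 78.0 against 1570 and 1844.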

How the data were processed

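ATAC-seq peak lists and nuclear RNA tables of kidney were used as deposited. The authors ran MACS2 2.1.2 on each library by itself, in broad mode and with no control, per the file headers. Each deposited peak has a −log10 of the q-value, a fold (ratio over local background) and a pileup signal, which the authors did not scale between libraries. Per the submitters' processing notes, reads were aligned with Bowtie2 to mm10 and transcripts were quantified with Salmon 1.5.1. The deposited tables give the authors' estimated count and TPM per transcript; counts were rounded to whole reads, and TPM were copied but not tested. Header entries naming the alignments differ between the adult and the P6 kidney libraries, so processing and age cannot be told apart.

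Lists were cut, joined and assigned as described above. Of 21887 protein-coding genes, 17492 have a start in the RefSeq table of GRCm38.p6; for 4395 the nearer end of the gene was used. The named regions are the 12 best-ranked gained and lost regions without a peak of the other age, 1 per gene, the 8 genes with most regions in each direction, members of the gene lists, and 2 transcripts per direction. A lost region and a list member are not reported here by name. Members and lists were chosen with earlier results of these data known. Of the 413 listed genes, 410 matched. RNA was tested with edgeR 4.0.16 in R 4.3.3 (TMM, low-count filter), with DESeq2 1.42.0 as an alternative; 1 fit over all organs estimated its trend on a subset of transcripts. On simulated counts of 58439 transcripts with 200 changed, the edgeR fit recovered 7% of 4-fold, 39% of 8-fold and 62.5% of 16-fold changes, with 17.6%, 3.7% and 7.41% of its calls false. Nothing in the labels says that replicates came from separate animals, so p-values measure only the spread between these libraries. Replicates of the kidney RNA groups differed by 8.51 to 55.8 chi-square units per degree of freedom, well above sampling noise.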

Additional observations from a re-analysis of the deposited data

How the results depend on the processing

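The number of regions depends on how the lists are cut. With full lists, 544 regions were gained and 11200 lost; with the top 10000 peaks, 769 and 955; with no peak allowed in the full lists of the other age, 277 and 1806. A −log10 q of at least 5 left 372 gained and 4026 lost regions. When a library's peaks had to cover 50% of a region, a setting chosen after seeing the data, 4173 were lost. Asking only that a peak lie to 50% within its region changed nothing, since each does. With 1 library standing for an age, 3117 to 5341 were gained and 3555 to 5044 lost, since fewer lists then had to agree. The promoter share was 16.2% for gained and 13.0% for lost regions within 2.5 kb of a start, and 5.70% and 8.49% with full lists. It ran from 8.53 to 14.0% and from 6.58 to 10.4% without each library. Gained regions then lay below lost ones with full lists and without either adult library.

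Genes with gained regions numbered 505 with full lists, 261 without any P6 peak and 2516 within 50 kb of a start. Genes with lost regions numbered 6168 with full lists. The input difference of lost regions (adult minus P6) was -30.6 percentage points with full lists and -17.3 with the top 10000 peaks. The difference of gained regions in 5 other organs reversed to -2.56 points with full lists.

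The share of tested transcripts higher and lower at adult was 0% and 0% on the 4 endothelial libraries, 4.60% and 2.90% with DESeq2 (2690 and 1695 transcripts), and 0.0822% and 0.133% over all bulk RNA libraries (73 and 118). It ranged from 0 to 1.496% and from 0 to 1.59% without each endothelial library, with 0% without P6 library 2. The lone library was then assumed to vary like the other groups. With the replicate number as a block it was 0.488% and 0.299%. Same-numbered adult and P6 endothelial libraries did not deviate together (Pearson r of -0.06 over 58439 transcripts). Same-numbered adult endothelial and adult input libraries did so to a degree (r of 0.194), and the main fit treated them as independent. The cause of these changes was not tested.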

Other observations

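Promoters outside the gene lists fell in both sets, and the ones named here were chosen after their values were seen. Among lost promoters were Clspn, a checkpoint adaptor of DNA replication, with folds of 5.43 and 5.36 in P6 libraries 1 and 2, and Pclaf, a partner of the replication clamp, with 4.50 and 4.18. Timp1, an inhibitor of matrix proteases, had 6.98 and 5.55, and the matrix genes Fbln1 and Emilin1 had 4.00 and 3.92 and 2.70 and 2.89. No adult endothelial library listed a peak at these 5 promoters. In the input lists, cut to 26085 peaks, Clspn and Pclaf had a peak in each of the 3 P6 inputs, but also in 2 and 1 of the 2 adult inputs. Sox11, a factor of embryonic cells, had folds of 4.10 and 4.52 at P6 and kept a peak of 2.92 in adult library 2. Among gained promoters, Oasl1 and Dtx3l, both interferon-stimulated, had adult folds of 3.07 and 3.41 and of 3.24 and 3.24, against 3.33 and 3.15 and 3.48 and 3.41 at P6; folds are not scaled between libraries.

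Other gene groups had regions in both sets, which hold 5.69% (gained) and 7.18% (lost) of all regions. Basement membrane and matrix genes held 10 gained and 7 lost regions of 113 (8.85% and 6.19%): Col4a2 and Sparc had 2 gained and 0 lost regions each, and Nid2, which encodes nidogen 2, had 3 lost and 0 gained. BMP and TGF-beta genes held 8 gained and 7 lost regions (6.40% and 5.60%), with 2 gained regions at Smad6, an inhibitor of BMP signalling, and 2 lost ones at the ligand gene Tgfb2. Fatty acid genes held 7 gained and 5 lost of 64 (10.9% and 7.81%), with 2 gained regions at Acsl1, which activates fatty acids, and 1 lost region each at Pparg, Fabp5 and Angptl4. Klf6 alone had 4 gained and 3 lost regions of 21.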
